A study of Mus musculus with 6 samples.

Results

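The genes of the BCL2 family that govern survival and death were followed in PA6 cells, a murine stromal cell line, over 10 members. These are the BH3-only genes BMF, BCL2L11 (BIM), BBC3 (PUMA), BAD and BID, the effectors BAX and BAK1, and the survival genes BCL2, BCL2L1 (BCL-XL) and MCL1. Every probe carrying one of these symbols on the array was taken, 19 probes of 45281, and the 10 genes stand among 30854 gene names. Of the 19 probes, 14 passed the detection filter (both arrays of some group with a detection p under 0.05), and every member had such a probe, so that 10 of the 11872 genes tested are members. The 10 members were chosen with their responses to FGF2 and BMP4 on these arrays already known. Their differences from control are therefore given as a description, without a test.

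BCL2 family proteins set whether the outer membrane of the mitochondrion is opened and cytochrome c is released. BAX and BAK1 form the pores, the survival proteins BCL2, BCL-XL and MCL1 hold them back, and the BH3-only proteins are the sensors that block the survival proteins or activate the effectors directly. In many cell types growth factors keep BH3-only genes low through the ERK and AKT kinases, AKT acting in part through the FOXO transcription factors, and withdrawal of serum or of a growth factor raises them.

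Confluent PA6 monolayers were kept for 3 h in serum-free medium, which all 3 groups share, without growth factors (-GFs, the control), with 20 ng/ml of recombinant FGF2 or with 10 ng/ml of recombinant BMP4, the dose in the labels. Each group had 2 biological replicates, and a replicate was made of 1 well of each condition, hybridized to 6 MouseWG-6 v2.0 arrays. PA6 is 1 cell line, and only RNA was measured, so neither protein nor cell death enters these values. In bulk RNA, fewer cells of a type and less RNA per cell cannot be told apart.

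The 6 arrays were alike in brightness. Median intensity ranged from 153.4 to 168.1 and 15509 to 16459 probes were detected per array at a detection p under 0.05. Of 8 stromal markers, 8 were detected on all 6 arrays. Of the 6 pluripotent, 6 endothelial, 6 haematopoietic and 6 epithelial markers, 1, 1, 0 and 1 were (POU5F1, TEK and CDH1), 4, 4, 5 and 5 were detected on none, NANOG, CDH5, PTPRC and EPCAM among them, and DPPA5A, KDR and CORO1A were detected on 3, 4 and 5 arrays. The summed intensity of the 8 stromal markers was 100590 and 121770.5 on the -GFs arrays, 77755.9 to 86409.7 with FGF2 and 98735.7 to 99772.3 with BMP4. Its part in the differences below was not tested.

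Levels are log2 intensities after cubic spline normalization, and a difference is a difference of group means on that scale with the standard error (SE) of the limma fit. Spread between the 2 arrays of a group is the SD (n = 2). A gene was called at an absolute log2 difference over 1 and a limma p under 0.1 after Benjamini-Hochberg adjustment over the 11872 genes. As 2 arrays of a group often lie apart from 2 others, shares over all genes are given beside the members' counts, and levels of different probes are not compared.

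Promoter sequence is shown for the 3 BH3-only genes with the largest differences between FGF2 and -GFs medium, so that the letters of factors downstream of growth factors can be read beside their levels. Each window runs from 250 bases before to 50 bases after an annotated start in RefSeq (GRCm38.p6), 5′ to 3′ on the strand of the gene, and capitals mark motif matches. They are BMF at chr2:118549637-118549936 (minus strand, 1 of 3 windows), BCL2L11 at chr2:128125788-128126087 (plus strand, 1 of 2 windows) and BBC3 at chr7:16310011-16310310 (plus strand, 1 of 3 windows).
BMF: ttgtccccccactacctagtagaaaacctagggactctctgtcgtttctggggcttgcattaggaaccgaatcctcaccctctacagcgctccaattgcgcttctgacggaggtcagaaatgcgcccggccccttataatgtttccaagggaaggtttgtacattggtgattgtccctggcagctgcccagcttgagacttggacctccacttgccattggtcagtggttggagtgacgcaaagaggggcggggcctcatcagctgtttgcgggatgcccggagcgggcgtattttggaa
BCL2L11: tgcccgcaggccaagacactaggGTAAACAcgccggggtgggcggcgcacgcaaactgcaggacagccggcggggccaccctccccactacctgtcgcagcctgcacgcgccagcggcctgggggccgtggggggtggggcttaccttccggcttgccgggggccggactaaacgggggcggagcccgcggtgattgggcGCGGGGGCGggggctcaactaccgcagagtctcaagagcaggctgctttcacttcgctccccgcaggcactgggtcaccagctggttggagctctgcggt
BBC3: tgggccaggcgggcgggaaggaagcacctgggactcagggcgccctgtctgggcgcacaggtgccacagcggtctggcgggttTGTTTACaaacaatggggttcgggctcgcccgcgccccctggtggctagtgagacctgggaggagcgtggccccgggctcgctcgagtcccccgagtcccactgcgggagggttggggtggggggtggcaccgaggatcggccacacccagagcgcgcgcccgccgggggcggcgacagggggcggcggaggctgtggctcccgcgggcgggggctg
The letters searched on both strands were TGTTTAC (FOXO), TGACTCA (AP-1), TGACGTCA (CRE), CACGTG (E-box), and GCGTGGGCG and GCGGGGGCG (EGR). The BCL2L11 window held the FOXO letters on the opposite strand, starting 227 bases before the start, and GCGGGGGCG 50 bases before it. The BBC3 window held the FOXO letters 167 bases before the start. For both genes the window shown is the one with the FOXO letters, which their other windows lacked. None of the 6 was found in the 3 windows of BMF, which says only that these letters are not there.

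Over the 18 windows of the 10 members, the FOXO letters occurred in 2, CACGTG in 2 (BBC3 and BAX) and GCGGGGGCG in 2 (BCL2L11 and BBC3). AP-1, CRE and GCGTGGGCG letters occurred in 0 of 18. Among all 32851 RefSeq promoters of the same length, the FOXO letters were in 3.65%, CACGTG in 7.15%, GCGGGGGCG in 2.91%, AP-1 in 5.2%, CRE in 1.79% and GCGTGGGCG in 0.612%. Some windows of 1 gene overlap, such as the BBC3 window shown and the one with CACGTG, so windows are not independent. The members' windows were rich in G and C, with a median of 64.5% against 52.7% over all promoters.

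Among the BH3-only genes, BMF stood apart. BMF links the cytoskeleton to the mitochondrial pathway and is held on the dynein light chain DYNLL2 until it is released. Its deposited intensity was 1168.2 and 1377 in -GFs medium, 149.7 and 202.9 with FGF2, and 866.5 and 1508.1 with BMP4. Both FGF2 arrays lay below the other 4, and the probe was detected on 1 of the 2 FGF2 arrays. On the log2 scale the level was 10.24 ± 0.36 (SD, n = 2) in -GFs medium, 7.45 ± 0.32 with FGF2 and 10.19 ± 0.47 with BMP4. FGF2 minus -GFs was -2.79 (SE 0.29), or 6.93-fold lower, and was -2.76 and -2.82 within the 2 pairs of wells, the first of which has the FGF2 array that did not detect the probe. The size of the difference therefore rests on values at or near background with FGF2. BMP4 minus -GFs was -0.06 (SE 0.29), less than the spread between replicates. With the background correction neqc the difference was -4.37.

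BCL2L11 encodes BIM, which binds all survival proteins and is degraded after phosphorylation by ERK. Its brightest probe read 11.01 and 10.92 in -GFs medium, 10.07 and 10.24 with FGF2, and 10.91 and 10.91 with BMP4. The FGF2 arrays were the lowest 2 of the 6. FGF2 minus -GFs was -0.81 (SE 0.15), or 1.76-fold lower, and the SD within each group was at most 0.12. BMP4 minus -GFs was -0.06 (SE 0.15). A dimmer BCL2L11 probe, detected on all 6 arrays, differed by -0.40, with -0.06 in the first pair and -0.73 in the second. The 2 further BCL2L11 probes were detected on 0 arrays.

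BBC3 encodes PUMA, the BH3-only protein best known as a p53 target. Its brightest probe read 10.06 and 10.61 in -GFs medium, 9.78 and 9.94 with FGF2, and 9.72 and 10.04 with BMP4. Both factors gave lower values than -GFs medium without overlap. The 2 factors lay side by side, with FGF2 minus -GFs at -0.48 (SE 0.22), BMP4 minus -GFs at -0.46 (SE 0.22) and FGF2 minus BMP4 at -0.02. The 2 dimmer BBC3 probes did not go the same way with FGF2, at -0.21 and 0.30, and the second was not detected in -GFs medium, which leaves FGF2 at least 1.19-fold higher there. The BBC3 difference thus depends on the probe. Within the 2 pairs of wells, FGF2 minus -GFs was -0.29 and -0.67, and BMP4 minus -GFs -0.35 and -0.57. Without the second -GFs array these differences were -0.21 and -0.19, and without the first -0.75 and -0.73. Leaving out 1 array breaks the pairs, so such values, here and below, also carry the difference between replicates.

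BAD, which is held by 14-3-3 proteins once growth factor signalling phosphorylates it, read 11.07 and 11.58 in -GFs medium, 10.91 and 10.89 with FGF2, and 11.09 and 11.31 with BMP4. FGF2 minus -GFs was -0.43 (SE 0.20), of which -0.16 came in the first pair and -0.69 in the second, and the FGF2 arrays were again the lowest. Without the second -GFs array the BAD difference was -0.17, and without the first -0.68. BID, which is cut by caspase-8 and carries the death receptor signal to mitochondria, read 10.08 and 10.46 in -GFs medium, 10.50 and 10.57 with FGF2, and 9.92 and 9.94 with BMP4. Here the 3 groups did not overlap, with FGF2 highest and BMP4 lowest. FGF2 minus BMP4 was 0.60 (SE 0.17), made up of 0.26 (SE 0.17) above and -0.34 (SE 0.17) below -GFs medium. Within the pairs these parts were 0.42 and -0.16 in the first and 0.11 and -0.52 in the second. Without the first -GFs array they were 0.07 and -0.53, and without the second 0.45 and -0.15. The dimmer BID probe gave the other sign with FGF2, -0.31, and was not detected on the FGF2 arrays, so that -GFs medium was at least 1.09-fold higher.

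The effectors BAX and BAK1 overlapped between groups. BAX, which moves from the cytosol to the mitochondrion, read 11.02 and 11.29 in -GFs medium, 11.11 and 10.92 with FGF2, and 10.78 and 11.38 with BMP4. BAX differed by -0.14 (SE 0.23) with FGF2 and by -0.08 (SE 0.23) with BMP4. BAK1, which sits in the mitochondrial membrane, read 7.81 and 8.31 in -GFs medium, 7.75 and 8.16 with FGF2, and 8.04 and 8.31 with BMP4. Its differences were -0.10 (SE 0.23) and 0.11 (SE 0.23). For both genes every difference was smaller than its standard error.

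**Figure D1:**
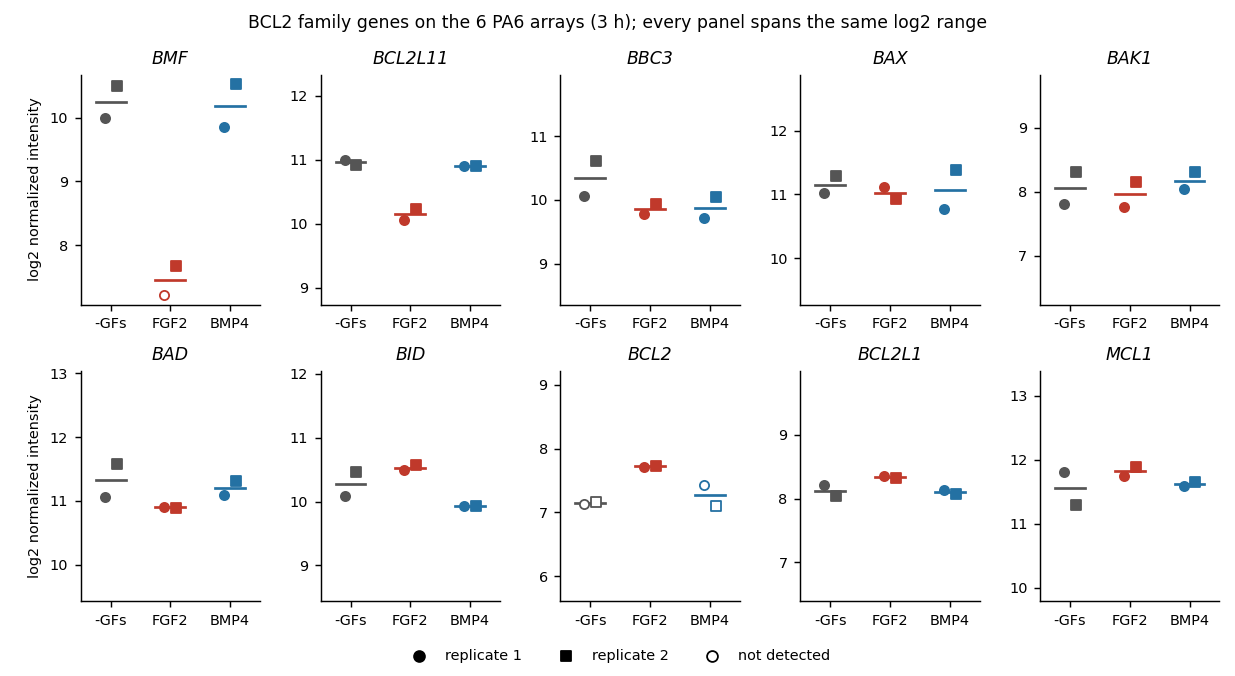
Levels of the 10 BCL2 family genes on the 6 arrays. The vertical axis is log2 intensity after normalization, each panel spans the same log2 range, points are single arrays (circle replicate 1, square replicate 2, open where not detected) and bars are group means. BMF with FGF2 lies near 7.45 against 10.24 in -GFs medium, while BAX and BAK1 overlap between groups.

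Among the survival genes, BCL2 had a low signal. Its probe read 145.1 and 138.1 in intensity in -GFs medium, 209.6 and 209.6 with FGF2, and 164.4 and 142.6 with BMP4. It was detected on the 2 FGF2 arrays and on no other, and it passed the detection filter through them, so that it had to be higher there. FGF2 minus -GFs was 0.58 (SE 0.16). As the -GFs arrays give only a bound, BCL2 was at least 1.10-fold higher with FGF2 than in -GFs medium, and the bound against BMP4 was also 1.10-fold. The other BCL2 probe, brighter but detected on 2 arrays of different groups, differed by 0.08, and this is the value for BCL2 when no detection filter is used, whereas neqc gave 1.25 for the probe that passed.

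BCL2L1, which encodes BCL-XL, read 8.21 and 8.03 in -GFs medium, 8.36 and 8.32 with FGF2, and 8.14 and 8.06 with BMP4. FGF2 minus -GFs was 0.22 (SE 0.15), and the BMP4 and -GFs arrays overlapped. The 2 other BCL2L1 probes were detected on no array. MCL1, a short-lived survival protein whose messenger RNA responds early to many factors, read 11.81 and 11.29 in -GFs medium, 11.75 and 11.89 with FGF2, and 11.60 and 11.66 with BMP4. MCL1 spread widely between the -GFs arrays (SD 0.37), and FGF2 minus -GFs was 0.27 (SE 0.20), with -0.06 in the first pair and 0.60 in the second. Without the second -GFs array the MCL1 difference was 0.01, and without the first 0.53. For BCL2L1 these values were 0.13 and 0.31.

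**Figure D2:**
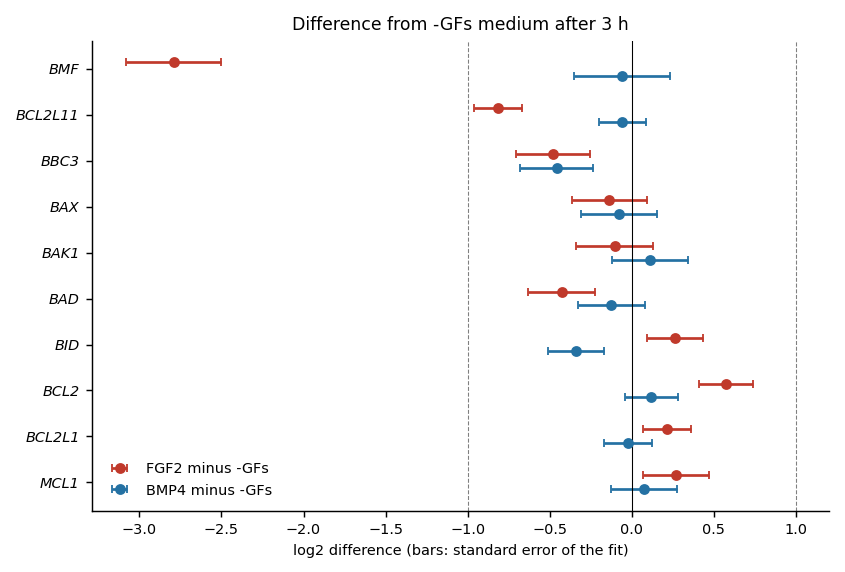
Differences from -GFs medium for each of the 10 genes. The horizontal axis is the log2 difference of group means, bars are the standard error of the limma fit, and dashed lines mark a log2 difference of 1 in either direction. With FGF2 only BMF lies beyond a dashed line, at -2.79, and with BMP4 every gene lies between -0.46 and 0.12.

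Set side by side, BMF, BCL2L11, BBC3, BAD and BID were at -2.79, -0.81, -0.48, -0.43 and 0.26 with FGF2. BAX and BAK1 were at -0.14 and -0.10, and BCL2L1 and MCL1 at 0.22 and 0.27. For BCL2 the bound alone, at least 1.10-fold higher, holds. On its brightest probe BID went the other way from the rest of the BH3-only genes, and on its dimmer probe, at -0.31, the same way. The sign for BBC3 also differed between probes. BMF with FGF2 lay at or near background, and MCL1 was at 0.01 without the second -GFs array. For FGF2 against -GFs, 1 member was called lower (BMF) and 0 were called higher, where 1.25% of all genes tested were called lower and 2.28% higher. By the adjusted p alone 2 were lower (BMF and BCL2L11), beside 5.78% of all genes, and 1 was higher (BCL2, whose direction the detection filter fixed), beside 6.03%. BCL2L11 did not pass with either FGF2 array or the first -GFs array left out, and BCL2 with any FGF2 or -GFs array left out. The members were selected on this contrast, and nothing is read from these counts. With the replicate number as a block, 4 were lower by the adjusted p alone (adding BBC3 and BAD) and 1 higher, where the shares over all genes were 19.6% and 18.1%.

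On the probes used, 4 members were lower and 3 higher without overlap with FGF2, where 29.1% and 24.6% of all genes tested were. The 3 higher include BCL2, whose direction the detection filter fixed. Among all 19 member probes, some of them below the detection filter, 7 were lower, 6 higher and 6 overlapping. The share over all probes was not computed, so nothing is read from these probe counts. The median FGF2 difference was -0.12 over the 10 members and -0.02 over all genes, and the median size 0.35 against 0.24. The members' medians include the 0.58 of BCL2, for which the bound alone holds.

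With BMP4, BBC3 (-0.46) and BID (-0.34) lay below the 5th percentile of all genes, -0.28. The other members lay from -0.12 to 0.12. No member was called in either direction or passed the adjusted p, with or without the block, where 0.00842% of all genes tested, 1 gene, was called higher and 0% lower. Without overlap, 3 members were lower (BCL2L11, BBC3 and BID) and 0 higher, beside 12.8% and 11.2% of all genes. The members' median size of difference was 0.09 and that of all genes 0.11.

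The 2 factors were also set directly against each other, using the same FGF2 arrays on which the members were chosen, so that nothing is read from these counts either. Here 1 member was called lower with FGF2, BMF at -2.73 (SE 0.29), and 0 higher, where 1.04% of all genes were called lower and 2.03% higher. By the adjusted p alone 2 were lower, BMF and BCL2L11 (-0.76, SE 0.15), and 0 higher, beside 4.22% and 4.84%. With the block 2 members were lower and 2 higher, BID at 0.60 and BCL2, whose direction the filter fixed and for which the bound is 1.10-fold, where 17.8% and 16.3% of all genes were.

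**Figure D3:**
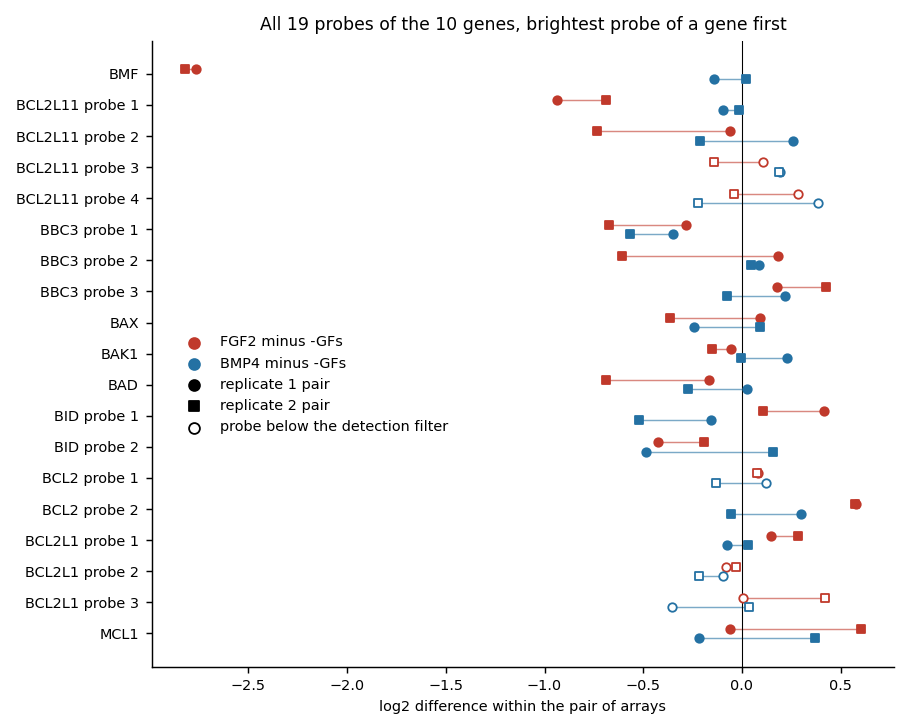
Differences within each pair of wells for all 19 probes of the 10 genes. The horizontal axis is the log2 difference from the -GFs array of the same replicate (circle replicate 1, square replicate 2, red FGF2, blue BMP4), and open symbols are probes below the detection filter. BMF stands at -2.76 and -2.82 with FGF2, and the probes of BCL2L11, BBC3 and BID spread around smaller values.

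The replicates offer a comparison that did not enter the choice of members. Across the 3 conditions, replicate 2 was set against replicate 1 with limma, the group as a term. BMF was higher in replicate 2 in all 3 conditions. It was at 10.50 against 9.99 in -GFs medium, 7.68 against 7.23 with FGF2 and 10.52 against 9.85 with BMP4. With FGF2 the probe was detected in replicate 2 alone, so the values there lie at or near background. The BMF difference between replicates was 0.54 (SE 0.11, adjusted p = 0.0023). BAK1 was 0.39 higher (SE 0.11, adjusted p = 0.0196) and BBC3 0.34 higher (SE 0.12, adjusted p = 0.0446), both in 3 of 3 conditions. The other 7 members had adjusted p values from 0.18 to 0.90. The fold threshold was met by 0 members, where 0.329% of all genes were called higher and 0.699% lower in replicate 2. By the adjusted p alone 3 members were higher and 0 lower, beside 12.8% and 16% of all genes. Without 1 array at a time BMF kept its adjusted p under 0.1 (at most 0.0334), while that of BAK1 reached 0.153 and that of BBC3 0.334.

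The genes around the family were taken from 5 lists (83 genes, 82 on the array and 58 tested) that the choice of members did not use. These lists were also drawn up with earlier results of these data known. Their counts and p-values are therefore a description. With FGF2, 6 of the 58 were called, 2 higher and 4 lower, where 2.28% and 1.25% of all genes were. On the adjusted p alone 6 rose and 7 fell, beside 6.03% and 5.78% of all genes. With the replicate block 10 rose and 12 fell, beside 18.1% and 19.6%, which is close to the share over all genes. Those named for the adjusted p alone, other than CYCS, were picked after their values were seen. Of the 7 genes so named in the lists, CYCS, YWHAH, YWHAZ, FBXO32, FAS and GADD45A did not pass with either FGF2 array left out (adjusted p up to 0.178, 0.159, 0.28, 0.243, 0.187 and 0.256), and CASP6 did not pass with any array left out (0.102 to 0.341). YWHAZ was also lost without either -GFs array, FBXO32 and FAS without the first and GADD45A without the second. With BMP4, 0 of 58 were called or passed the adjusted p. Set against BMP4, FGF2 had 5 called genes, YWHAG and KLF2 higher and PIK3IP1, CCNG2 and SESN1 lower. Of all genes tested, 2.03% were called higher and 1.04% lower there. The median FGF2 difference over the 58 was 0.00, beside -0.02 over all genes.

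The closest relatives, 18 other BCL2 family and BNIP genes, held no called gene. On the array were 17 of them, 10 below the detection filter, and of the 7 tested 0 passed in either direction. The one with the largest FGF2 difference was BNIP2, at 0.39 (adjusted p = 0.253 by limma), with intensities of 2155.2 and 1393.3 in -GFs medium and 2013.7 and 2269.1 with FGF2.

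Downstream of the pore lie the apoptosome, the caspases and their inhibitors, of which 14 of 18 were tested and 0 called (2.28% of all genes higher, 1.25% lower). By the adjusted p alone, CYCS, the cytochrome c that the pore releases and that also serves respiration, rose by 0.95 (SE 0.17, adjusted p = 0.027). Its intensity was 2645.9 and 1737.2 in -GFs medium, 4094 and 3786.6 with FGF2, and 2146.9 and 2483.4 with BMP4, with both FGF2 arrays above the other 4. CASP6, an executioner caspase, fell by 0.63 (adjusted p = 0.0661). The other 12 did not pass.

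Of the partners and turnover factors of the family, 15 of 18 were tested, and 1 was called and rose (2.28% of all genes did). YWHAG, the 14-3-3 gamma protein, belongs to the proteins that hold phosphorylated BAD. Its intensity was 3402.6 and 2799.3 in -GFs medium, 8451.7 and 8532.9 with FGF2, and 2678.8 and 3178.7 with BMP4. The FGF2 arrays stood apart, and the difference was 1.56 (SE 0.14, adjusted p = 0.00492), or 2.95-fold. YWHAG was called with any 1 array left out (1.55 to 1.58). By the adjusted p alone 2 more 14-3-3 genes rose, YWHAH by 0.93 (adjusted p = 0.019) and YWHAZ by 0.68 (adjusted p = 0.0488). The list's median was 0.18.

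Among 13 FOXO factors and target genes, 9 were tested, and 3 were called lower and 1 higher, beside 1.25% and 2.28% of all genes. PIK3IP1, an inhibitor of PI3 kinase, had intensities of 2387.3 and 1661 in -GFs medium, 715.4 and 495.6 with FGF2, and 1797.6 and 1517.8 with BMP4. It fell by 1.64 (SE 0.22, adjusted p = 0.0138), and no FGF2 array reached the other 4. CCNG2, an atypical cyclin of non-dividing cells, fell by 1.25 (SE 0.26, adjusted p = 0.0415), from 1499.2 and 765.1 to 500 and 359.8. TXNIP, which binds thioredoxin and limits glucose uptake, fell by 1.12 (SE 0.18, adjusted p = 0.0213), from 22532.9 and 24076.8 to 9554 and 9867.7. The BMP4 arrays of TXNIP lay between, at 14980.2 and 15059.8, and TXNIP was not called between the factors (-0.61, adjusted p = 0.116). KLF2, a transcription factor known as a FOXO target in lymphocytes, went the other way. Its intensity was 2554.1 and 1696.3 in -GFs medium, 4508.7 and 4882 with FGF2, and 1705.6 and 1849 with BMP4, a rise of 1.25 (SE 0.17, adjusted p = 0.0132). FBXO32, a ubiquitin ligase subunit of muscle wasting, passed the adjusted p alone (-0.97, adjusted p = 0.0343) and was not detected on the FGF2 arrays, which leaves -GFs medium at least 1.66-fold higher. The list's median was -0.01.

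Among 16 p53 genes, 13 were tested and 1 was called, lower, beside 1.25% of all genes. SESN1, a stress-induced restraint on mTORC1, had intensities of 12812.8 and 8106.2 in -GFs medium, 3835.6 and 2973.1 with FGF2, and 8731.1 and 7065.5 with BMP4. It fell, to a level 2.83-fold lower (SE 0.26 on the log2 scale, adjusted p = 0.0261), with both FGF2 arrays below the other 4. By the adjusted p alone FAS, a death receptor, fell from 1440.6 and 1050.1 to 515.9 and 658.2 in intensity (adjusted p = 0.0332) and GADD45A, a stress sensor that slows the cell cycle, rose by 0.82 (adjusted p = 0.041). The list's median was 0.01. Without the first FGF2 array, PIK3IP1 and YWHAG were the called genes of the 58, and without the second YWHAG alone. CCNG2 was also lost without the first -GFs array, and TXNIP without the second.

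**Figure D4:**
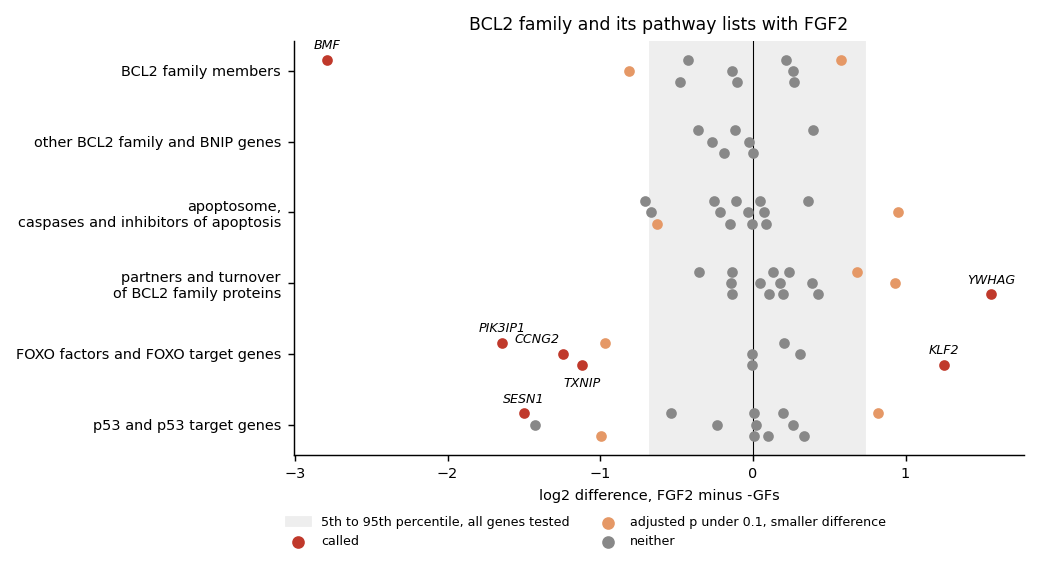
FGF2 differences of the members and of the 5 pathway lists. The horizontal axis is the log2 difference FGF2 minus -GFs, each point is a gene, and the grey band spans the 5th to the 95th percentile of all genes tested, -0.68 to 0.74. Named genes were called, with YWHAG and KLF2 to the right and BMF, PIK3IP1, CCNG2, TXNIP and SESN1 to the left.

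The genes whose levels were most like those of BMF over the 6 arrays, by Pearson's r on log2 intensity and without a test, were TRIM45 (0.999), AI662250 (0.999), PRICKLE1 (0.999), NAT6 (0.995) and RHOBTB1 (0.995). As 353 of the 11871 other genes had an r above 0.95, all over the same 6 arrays, such values are common here. With FGF2, TRIM45 differed by -0.84, PRICKLE1 by -1.52 and RHOBTB1 by -1.68.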

How the data were processed

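Total RNA of the 6 PA6 wells was profiled on Illumina MouseWG-6 v2.0 arrays. The authors deposited mean bead intensity per probe on a linear scale, before normalization between arrays, and beside each intensity its detection p-value. The submitters' notes name GenomeStudio 2011.01, and the genome build is not given in the sources used here. The table also has 9 unheaded columns (values on 2045 lines) and ends in 6 leftover lines, and none of these was used.

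Groups and replicates were taken from the labels. The columns of the table are headed PC, PF and PB with a replicate number, which were read as PA6 with control, FGF2 and BMP4; no label spells these codes out, and every value rests on this reading. In R 4.3.3 the study's cubic spline normalization was rewritten with 452 quantiles per array (1 per 100 probes), and values were taken to log2. A probe was kept (16111 were) where some group had a detection p under 0.05 on both its arrays, and a gene was represented by its brightest kept probe (3140 of 11872 genes had several). A single limma 3.58.1 model (lmFit, then eBayes) took all 6 arrays with the 3 groups as terms, with 3 residual degrees of freedom, and p-values were adjusted by Benjamini-Hochberg over all genes. Where neither array of a group detected a probe, its level there is a bound, computed from the lowest detected signal of each array. The number of arrays limits the precision, as 2 against 2 arrays cannot reach a permutation p under 0.333. The procedure was tested on simulated data with independent noise, no replicate effect and planted differences above the fold threshold. That test does not cover paired arrays or smaller differences.

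The replicate numbers pair the arrays, since by the labels a replicate was 1 well of each condition. Same-numbered arrays also deviated together across genes, with correlations of 0.602 (-GFs and FGF2), 0.741 (-GFs and BMP4) and 0.579 (FGF2 and BMP4). The blocked model has 2 residual degrees of freedom.

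Named genes are every member with all its probes, the called genes of each pathway list or, where none was called, the gene with the largest FGF2 difference, and the 5 genes most like BMF. The genes named for an adjusted p alone lie outside this rule, except CYCS. Members and lists were chosen with earlier results of these data known. Names were matched through RefSeq symbols and synonyms (GRCm38.p6), from which the promoter windows come. Protein sequences were not used here. Alternatives were quantile normalization, neqc (offset 16), median scaling, other detection filters, every probe, no fold threshold and eBayes with trend. Further ones were the replicate block, each array left out, and the unpaired t-test that the study names for its data in general. For the arrays themselves the study used limma.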

Additional observations from a re-analysis of the deposited data

How the results depend on the processing

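The BMF difference with FGF2 was negative under every alternative run that kept BMF, from -4.37 (neqc) to -2.54. The number of members called with FGF2 was 1, beside 3.53% of all genes. It went to 2 with neqc (adding BCL2, whose direction the detection filter fixed), beside 6.69%. It went to 0 when detection on all 6 arrays was asked (3.94% of all genes), which removes BMF and BCL2 by construction. Without a fold threshold it was 3 (adding BCL2L11 and again BCL2), beside 11.8%, and with the adjusted t-test it was 0, beside 0%. With any 1 array left out it stayed 1. For FGF2 against BMP4 the count of 1 (3.07% of all genes) went to 2 with neqc (5.39%), again adding BCL2 with the same limit. With detection on all arrays it was 0 (3.31%), and without a fold threshold 2 (9.06%). For replicate 2 against replicate 1 the count of 0 went to 3 without a fold threshold, beside 28.8% of all genes. Of the pathway genes, 6 were called with FGF2, 10 with neqc, 13 without a fold threshold and 0 with the adjusted t-test. The shares over all genes are those given for the members with FGF2. With the replicate block the counts were 1 member and 7 pathway genes with FGF2 (adding TRP53INP1), beside 3.95% of all genes. They were 0 members with BMP4 (0.0842% of all genes) and 1 member for FGF2 against BMP4 (3.51%). BMP4 against -GFs called 0 members and 0 pathway genes under every alternative run. Where not named above, the cause of a shift was not tested. Other scalings moved the median of all genes by less than 0.1 on the log2 scale, so directions are given as measured. Small differences took the other sign under some alternatives, with BMP4 those of BMF, BAX, BAK1, BAD, BCL2, BCL2L1 and MCL1, with FGF2 that of BAK1, and between the factors those of BAX and BBC3, and between replicates those of BCL2, BCL2L11 and MCL1. Probes near background (BCL2, the dimmer BBC3 and BID probes, BMF with FGF2) limit what these intensities can show.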
